A study of Homo sapiens with 8 samples.

Results

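A set of 30 genes of cholesterol and fatty acid synthesis were followed in human CAPAN-2 cells, an established line of pancreatic adenocarcinoma, in which either ErbB2 or MUC4 had been targeted by shRNA. The genes were chosen by name: 22 belong to the sterol arm (the enzymes from acetoacetyl-CoA to cholesterol and the regulators INSIG1, SREBF1, SREBF2 and STARD4) and 8 to the fatty acid arm. They were found through the RefSeq accession of each probe, which gave 47 probes for 29 of the 30 genes, among 41000 probes and 17240 named genes on the array. No probe was matched to ACLY, which was not analysed here. All 29 genes had a brightest probe that passed the filter on dim signals, and 46 of the 47 probes did. The exception was the dimmer of the FADS2 probes.

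Expression was measured on 8 Agilent arrays, each with a pair of RNAs in Cy5 and Cy3. In the ErbB2-KD experiment 4 clones stably carrying a puromycin vector with an ErbB2 shRNA (labelled EV7, EV12, EV9 and EV18, on arrays 1 to 4) were each compared with the NT pool, RNA of control clones with the empty vector. In the MUC4-KD experiment 4 arrays compared RNA labelled Muc4KD, from cells with a retroviral shRNA vector under G418 selection, with RNA labelled mock, from its empty-vector control. The methods give 4 clones and a pool of 4 control clones for each experiment, but the MUC4-KD labels name no clone. Each value below is a log2 ratio of labelled knockdown over labelled control, so 1 is a doubling. The study's own list of genes changed in MUC4-KD runs opposite to the ratios computed here from the labels, so the sign of that experiment is always that of its labels, MUC4-KD over Mock. A pool counts as 1 control sample, so the spread among control clones enters no test, and the p-values measure only the spread between 4 arrays.

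Cells make cholesterol from acetyl-CoA through mevalonate, squalene and lanosterol, and they make fatty acids from the same precursor through malonyl-CoA. Both routes are driven by the SREBP transcription factors, which SREBF1 and SREBF2 encode. When sterols are plentiful, INSIG proteins hold the SREBP precursor in the endoplasmic reticulum, and when sterols fall the precursor is cut and its active part switches on the genes of both arms. SREBP-1c favours fatty acid genes and SREBP-2 favours sterol genes. Growing carcinoma cells use both products for membranes.

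The promoters of 4 genes called in the RNA labelled MUC4-KD are shown as examples: SREBF2, DHCR7 and TM7SF2 were lower there and MSMO1 was higher. SREBF2 has the only matched member promoter with the sterol regulatory element letters given below, and its call is close to the threshold. Other called genes, such as SREBF1, PMVK and ELOVL6, are not shown. The sequences run 5′ to 3′ on the gene's strand, from 250 bases before the start of the gene to 50 after it (RefSeq, GRCh38.p14). Capitals mark the letters CCAAT, the box bound by NF-Y (ATTGG on the other strand), and TCACNCCAC, a form of the sterol regulatory element.
SREBF2, chr22:41832855-41833154, plus strand: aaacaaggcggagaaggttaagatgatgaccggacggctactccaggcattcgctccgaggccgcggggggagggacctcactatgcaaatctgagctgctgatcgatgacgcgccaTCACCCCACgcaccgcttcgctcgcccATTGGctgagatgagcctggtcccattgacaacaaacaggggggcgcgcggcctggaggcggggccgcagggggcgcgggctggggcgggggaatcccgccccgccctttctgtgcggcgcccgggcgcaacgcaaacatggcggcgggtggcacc
DHCR7, chr11:71448344-71448643, minus strand: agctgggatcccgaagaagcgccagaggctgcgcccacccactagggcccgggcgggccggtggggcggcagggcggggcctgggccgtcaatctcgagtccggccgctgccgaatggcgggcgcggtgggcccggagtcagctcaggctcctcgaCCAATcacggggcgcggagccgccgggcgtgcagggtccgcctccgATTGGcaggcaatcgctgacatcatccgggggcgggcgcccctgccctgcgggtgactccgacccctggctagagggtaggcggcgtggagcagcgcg
TM7SF2, chr11:65111622-65111921, plus strand: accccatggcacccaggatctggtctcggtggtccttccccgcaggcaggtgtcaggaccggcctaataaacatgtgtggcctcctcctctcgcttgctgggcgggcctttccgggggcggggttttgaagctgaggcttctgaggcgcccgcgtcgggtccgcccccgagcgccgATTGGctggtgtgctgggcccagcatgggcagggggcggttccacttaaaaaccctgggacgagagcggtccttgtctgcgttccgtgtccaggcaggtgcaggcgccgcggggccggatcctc
MSMO1, chr4:165327419-165327718, plus strand: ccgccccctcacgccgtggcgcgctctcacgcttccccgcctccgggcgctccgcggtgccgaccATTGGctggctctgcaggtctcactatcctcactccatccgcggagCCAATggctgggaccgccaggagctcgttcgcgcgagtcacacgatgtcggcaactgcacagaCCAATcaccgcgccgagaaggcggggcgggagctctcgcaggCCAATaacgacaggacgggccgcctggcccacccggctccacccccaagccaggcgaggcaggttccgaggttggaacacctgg

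Promoters of 19 of the 22 sterol genes and 7 of the 8 fatty acid genes were matched. CCAAT, on either strand, stood in 15 of the 19 sterol promoters and in 3 of the 7 fatty acid promoters, against 34.6% of 35116 promoters of the same length. The GC box, GGGCGG, stood in 18 of the 19 and 6 of the 7, against 45.0%. The letters CACGTG, an E-box, stood in 3 of the 19 and in none of the 7, against 7.26%. The letters TCACNCCAC stood in 1 member promoter, that of SREBF2, 133 bases before the start, against 1.13% of all promoters. MSMO1, which was higher, and DHCR7 and TM7SF2, which were lower, all hold CCAAT. Of the other called genes, SREBF2, LSS and SCD hold it, SREBF1, PMVK, FADS1 and ELOVL6 do not, and SQLE was not matched. These are matches of letters and were not tested as binding sites.

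The labelled targets were checked before the members were read. ERBB2, by its brightest probe, stood at -0.58, -0.32, -0.33 and -0.38 on the ErbB2-KD arrays (limma, adjusted p = 0.145), lower on all 4. Its other probe stood near 0, at 0.04, 0.03, 0.06 and 0.01, but was dim (mean log2 intensity 7.41 against 12.4). The paper reports a nearly complete loss of ErbB2 protein and lower ErbB2 mRNA by qRT-PCR in its ErbB2-KD clones. The 4 probes of MUC4 had means of 0.27 to 1.84 in the RNA labelled MUC4-KD, and 2 of them were called higher, against the label. The paper reports loss of MUC4 protein in its MUC4-KD clones by Western blot and lower MUC4 mRNA by qRT-PCR. Whether the labels of these arrays are crossed was not tested. Every sign given for that experiment would turn if its labels were crossed. Arrays of one experiment correlated over 20415 probes at r = 0.17 to 0.72 in ErbB2-KD and at r = 0.33 to 0.83 in MUC4-KD. MUC4-KD arrays 1, 2 and 3 each correlated least with array 4 (0.33 to 0.55). Of the 3 slides, every one carried both experiments. All 7 epithelial markers were well above background in all 16 channels, as were 0 of 5 fibroblast, 0 of 4 endothelial and 1 of 5 leukocyte markers (CD14). In no channel at all were 2 fibroblast, 0 endothelial and 1 leukocyte markers above background. The others were so in part of the channels. The endothelial VWF was above background in 7 knockdown and 7 control channels, CD3E in 4 and 4 and COL3A1 in 4 and 3. In RNA from whole cultures, fewer cells of a kind and less RNA per cell cannot be told apart.

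In ErbB2-KD no member gene was called. With limma and an adjusted p under 0.05, 0 of 29 genes passed, where 1.94% of 12028 genes did (0.748% higher and 1.19% lower). At an unadjusted p under 0.05 there were 6 (5 higher and 1 lower), where 20.8% of all genes had one. The unmoderated test of the methods also called 0 after adjustment, as it did over all genes (0%). It gave 2 at an unadjusted p under 0.05, where 1710 of 12028 genes had one. The sterol genes had a median log2 ratio of 0.26, with 18 of 22 means above 0, and the fatty acid genes a median of -0.02, with 3 of 7 above 0. The median of all genes was -0.0025. In 6 of 29 members all 4 arrays lay on one side of 0, against 28.0% of all genes.

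The ErbB2-KD arrays, 1 for each clone, differed among themselves. The sterol genes had a median of -0.21 in clone EV7, 0.58 in EV12, 0.22 in EV9 and 0.40 in EV18. They were above 0 in 6 of 22 genes in EV7 and in 18 of 22 in EV12 and EV18. The fatty acid genes had medians of -0.14, -0.01, -0.06 and -0.04 on the same arrays. Thus in EV7 most sterol genes were below the pool and in EV12 and EV18 most were above it. Without EV7 the sterol median was 0.39, and without EV12 it was 0.18. Each clone was read on 1 array, so clone, dye and slide cannot be told apart. EV7 and EV12 were in Cy5, on slides 1 and 2, and EV9 and EV18 in Cy3, on slides 1 and 3. The EV12 array was also the brightest, with median signals of 248 in green and 593 in red. It correlated with the other ErbB2-KD arrays at r = 0.17 to 0.36.

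**Figure D1:**
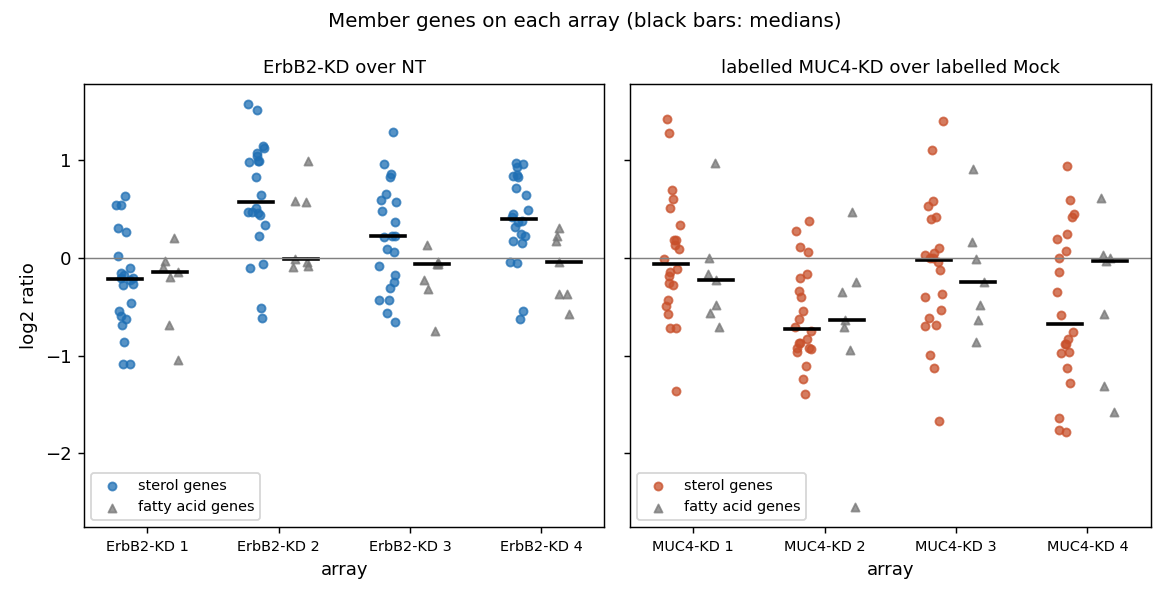
Log2 ratio (vertical axis) of the 22 sterol genes (circles) and 7 fatty acid genes (triangles) on each array (horizontal axis), with ErbB2-KD on the left and labelled MUC4-KD on the right. Black bars are medians over genes. The sterol medians run from -0.21 to 0.58 in ErbB2-KD and from -0.73 to -0.02 in MUC4-KD.

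Among the early enzymes, ACAT2, which joins acetyl-CoA units at the entry of the pathway, stood at 0.64, 0.34, 0.37 and 0.45 on the ErbB2-KD arrays. By this probe all 4 clones lay above the pool, with a mean of 0.45 ± 0.13 (SD, n = 4; 1.37-fold; limma, adjusted p = 0.124). By its other probe, at 0.76, 0.66, -0.15 and 0.04, EV9 lay below the pool and EV18 was level with it. MVK, which phosphorylates mevalonate, was at 0.02, 0.98, 0.96 and 0.97, a mean of 0.73 ± 0.48 (limma, adjusted p = 0.139). By this probe EV7 was level with the pool and the other 3 clones were close to each other above it. The other MVK probe gave -0.17, 0.15, 1.16 and 0.90, which put EV12 near EV7 and not near EV9 and EV18. HMGCS1, which makes HMG-CoA, split the clones, at -0.20, 1.05, -0.57 and 0.93, and its dimmer probe gave the same split. IDI1, the isomerase of the isoprene unit, was at -0.86, 0.99, 0.23 and 0.85. PMVK, MVD and FDPS, which act between mevalonate and farnesyl diphosphate, had means of -0.26, 0.24 and 0.09.

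The enzymes from squalene onward showed a similar spread. SQLE, squalene epoxidase, ran from -0.62 in EV7 to 1.51 in EV12, with 0.48 in EV9 and 0.83 in EV18. CYP51A1, the lanosterol demethylase, was at -0.22, 1.58, 1.29 and 0.38, and its other probe at -0.11, 1.56, 1.26 and 0.35. The mean of 0.76 ± 0.83 was the highest of the members but was not called (limma, adjusted p = 0.275). EBP, a sterol isomerase, was at -0.18, 1.15, 0.65 and 0.65 (limma, adjusted p = 0.251). FDFT1, squalene synthase, stood apart in EV7 at -1.09, against 0.47, 0.22 and 0.32. In these 4 genes EV7 gave the lowest value. TM7SF2, NSDHL, HSD17B7, SC5D, MSMO1, DHCR7 and LSS had means between 0.15 and 0.45.

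Of the regulators, SREBF1 was lower on all 4 ErbB2-KD arrays, at -0.59, -0.10, -0.65 and -0.63. Its mean of -0.49 ± 0.26 did not pass (limma, adjusted p = 0.15), and its other probe gave -0.32 ± 0.19, at -0.59, -0.27, -0.25 and -0.17. Both probes lay below 0 in every clone, but the clone nearest to 0 was EV12 by one and EV18 by the other. SREBF2 was at -1.09 and -0.61 in EV7 and EV12 and at 0.06 and 0.17 in EV9 and EV18. INSIG1, which retains the SREBP precursor, was below the pool in EV7 (-0.54) and above it in the other 3 clones (0.64, 0.86 and 0.72). STARD4, a carrier of cholesterol in the cytosol, had a mean of 0.32 ± 0.33.

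In the fatty acid arm, FASN, the fatty acid synthase, was at -1.05 in EV7 and at -0.01, -0.32 and -0.04 in the others. SCD, which puts a double bond into stearate, was at -0.68, 0.57, -0.75 and -0.37. FADS2, a desaturase of polyunsaturated fatty acids, was near the pool except in EV12 (0.99). EV12 was the highest clone for SCD and FADS2. For FADS1, the other desaturase, EV9 was the highest (-0.06) and EV12 next (-0.10) by the brightest probe. The other FADS1 probe gave 0.02, 0.05, -0.22 and -0.58, with EV12 the highest there too. ELOVL6, which elongates palmitate, was above 0 on all 4 arrays (mean 0.31 ± 0.20; limma, adjusted p = 0.263). ACACA (acetyl-CoA carboxylase), ACSS2 (acetyl-CoA synthetase) and FADS1 had means of -0.02, 0.001 and -0.23.

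**Figure D2:**
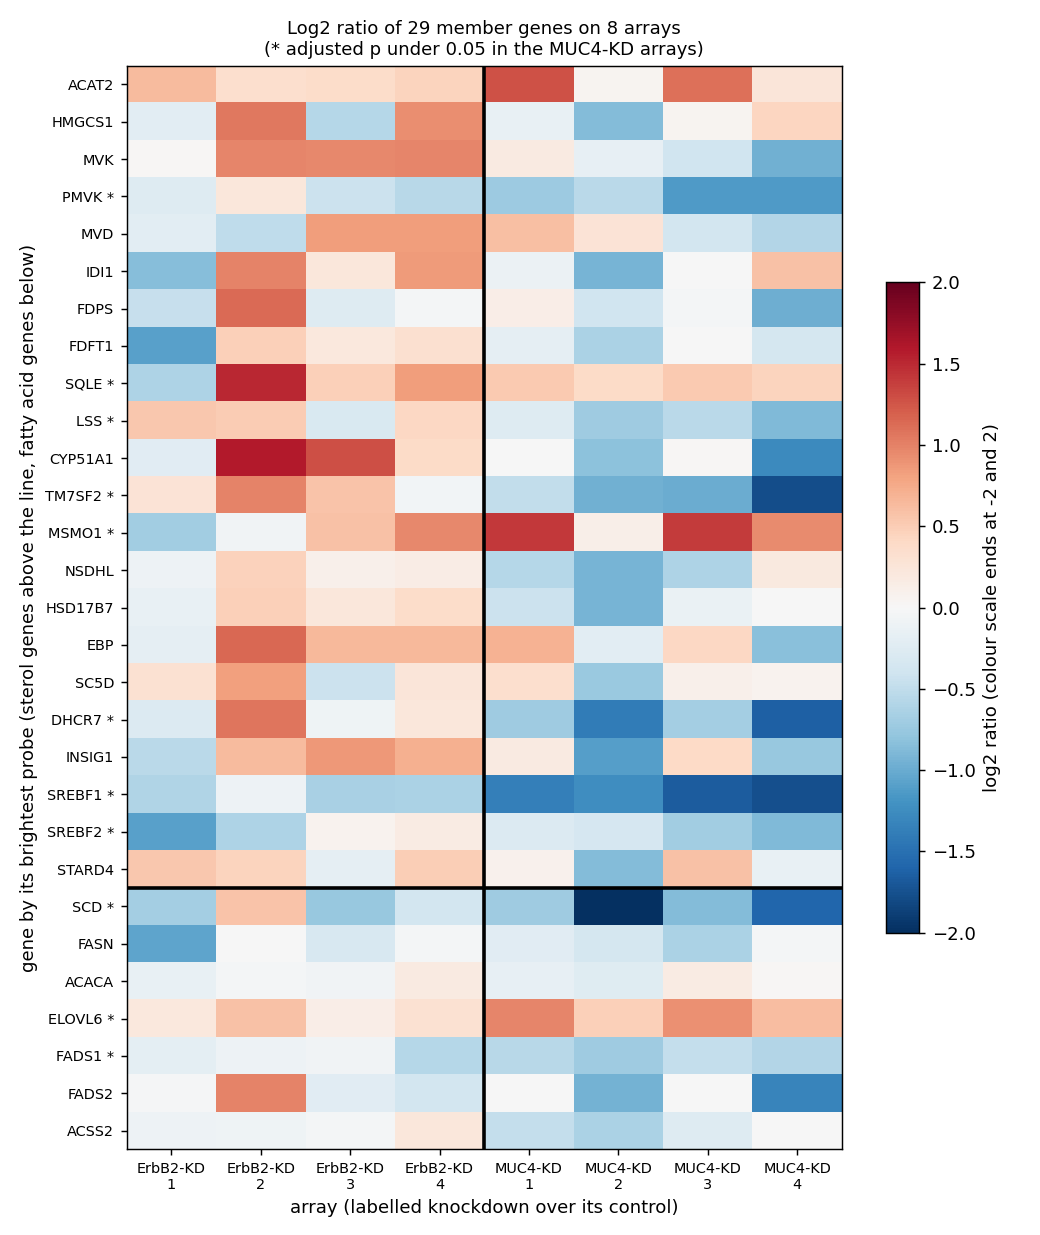
Log2 ratio (colour, from blue at -2 to red at 2) of the 29 genes (rows, by brightest probe) on 8 arrays (columns), with ErbB2-KD left and labelled MUC4-KD right of the black line. Stars mark the 11 genes called in MUC4-KD. SREBF1 is below 0 on all 8 arrays and ACAT2 and ELOVL6 are above 0 on all 8.

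In the RNA labelled MUC4-KD 11 of 29 member genes were called, 3 higher and 8 lower. Over all 12289 genes limma called 23.1%, of which 12.2% higher and 10.9% lower. The called members were SREBF1, SREBF2, PMVK, LSS, TM7SF2, DHCR7, SCD and FADS1, all lower, and MSMO1, SQLE and ELOVL6, all higher. The sterol genes had a median of -0.32, with 18 of 22 means below 0, and the fatty acid genes a median of -0.34, with 6 of 7 below 0, against a median of -0.01 for all genes, of which 51.2% were below 0. In 17 of 29 members all 4 arrays lay on one side of 0, against 50.5% of all genes. The count of calls depends on single arrays: it was 1 without array 1, 3 without array 2, 0 without array 3 and 13 without array 4. The share of all genes called moved alike, at 3.16%, 5.22%, 0.936% and 37.3%. With each probe's ratios centred on the array median in place of loess the count was 0, as was the share of all genes (0%), and with the unmoderated test of the methods it was also 0 after adjustment (10 at an unadjusted p under 0.05), where 0.659% of all genes were called. Of 12 other settings, SREBF1, DHCR7, PMVK and ELOVL6 were called in 10, TM7SF2 and SCD in 9, FADS1 in 8, MSMO1 in 7, LSS in 6, SQLE in 5 and SREBF2 in 3. With 1 array left out, SREBF1 was called in 3 of 4 fits, PMVK and MSMO1 in 2, and each of the other 8 in 1.

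Both SREBP genes were lower in the RNA labelled MUC4-KD, a direction that rests on those labels. SREBF1 stood at -1.37, -1.24, -1.67 and -1.76 on the 4 arrays, all far below 0. Its mean was -1.51 ± 0.25 (SD, n = 4), a fall of 2.85-fold (limma, adjusted p = 0.0038), and its other probe gave -1.15 ± 0.22 (limma, adjusted p = 0.00603). SREBF1 remained called without array 1, 2 or 4, and had an adjusted p of 0.053 without array 3 (limma). SREBF2 was at -0.28, -0.34, -0.70 and -0.89, a mean of -0.55 ± 0.29 (limma, adjusted p = 0.0451). All 4 arrays lay below 0, at a much smaller distance than for SREBF1. The SREBF2 call is close to the threshold. INSIG1 was at 0.19, -1.10, 0.40 and -0.76 and STARD4 at 0.09, -0.87, 0.58 and -0.14, so these genes, which SREBPs are known to activate, were on both sides of 0.

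Among the enzymes of the mevalonate route PMVK, phosphomevalonate kinase, was lower at -0.72, -0.55, -1.13 and -1.13. Its mean was -0.88 ± 0.29, a fall of 1.84-fold (limma, adjusted p = 0.016). ACAT2, at the entry, was at 1.28, 0.06, 1.11 and 0.24, and its other probe was high on the same arrays. By its brightest probe it was above 0 on all 4 arrays and did not pass (mean 0.67 ± 0.61; limma, adjusted p = 0.0876). HMGCS1, MVK, MVD, IDI1 and FDPS had means between -0.34 and -0.02, each with arrays on both sides of 0. FDFT1 was at or below 0 on all 4 arrays (mean -0.29 ± 0.27).

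The steps after squalene moved in both directions. SQLE was higher by nearly the same amount on each array, at 0.52, 0.38, 0.53 and 0.45, a mean of 0.47 ± 0.07 (limma, adjusted p = 0.0311). MSMO1, the sterol-C4-methyl oxidase, was at 1.42, 0.11, 1.40 and 0.94, with a mean of 0.97 ± 0.61 or 1.95-fold (limma, adjusted p = 0.0396). It was the most raised member and was close to the Mock level on array 2. LSS, which closes the lanosterol ring, was lower at -0.26, -0.71, -0.53 and -0.88 (mean -0.59 ± 0.26; limma, adjusted p = 0.0341). TM7SF2, a sterol C14 reductase, was lower at -0.50, -0.96, -0.998 and -1.78, a mean of -1.06 ± 0.53 or 2.08-fold (limma, adjusted p = 0.0256). DHCR7, the last enzyme of one of the routes to cholesterol, was at -0.72, -1.40, -0.69 and -1.64 (mean -1.11 ± 0.48, 2.16-fold; limma, adjusted p = 0.0194). For these 3 lower genes no array reached 0. NSDHL (-0.48), HSD17B7 (-0.37), CYP51A1 (-0.52), EBP (0.02) and SC5D (-0.06) were not called.

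In the fatty acid arm the largest fall was that of SCD, at -0.71, -2.55, -0.86 and -1.58. Its mean was -1.43 ± 0.84 or 2.69-fold (limma, adjusted p = 0.0311). FADS1, the delta-5 desaturase, was lower by a similar amount on each array, at -0.56, -0.70, -0.48 and -0.58 (mean -0.58 ± 0.09; limma, adjusted p = 0.0203). FADS2 was at -0.01, -0.94, -0.01 and -1.31, a mean of -0.57 ± 0.66 that was not called (limma, adjusted p = 0.147). So 2 of the 3 desaturases passed. ELOVL6 moved the other way, at 0.97, 0.47, 0.91 and 0.61, with a mean of 0.74 ± 0.24 or 1.67-fold (limma, adjusted p = 0.0189). The core synthesis enzymes FASN, at -0.23, -0.35, -0.64 and -0.04, and ACACA, at -0.17, -0.25, 0.16 and 0.03, were not called.

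**Figure D3:**
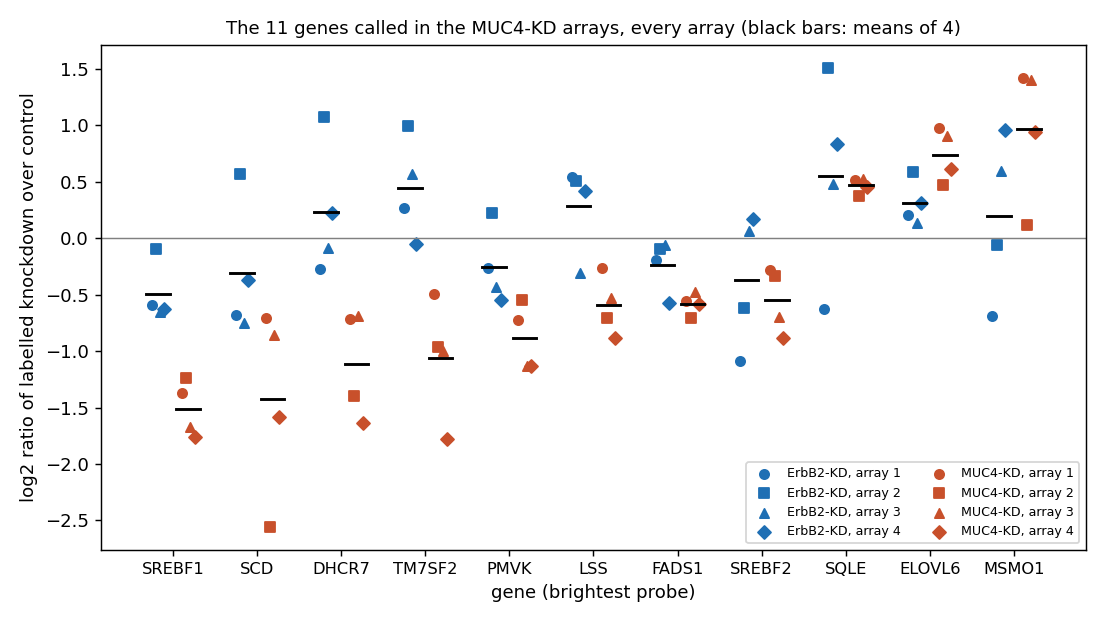
Log2 ratio (vertical axis) of the 11 genes called in labelled MUC4-KD (horizontal axis, ordered by mean), with ErbB2-KD in blue and MUC4-KD in red. Symbols give the array number and black bars the means of 4 arrays. For SREBF1, DHCR7 and TM7SF2 the symbols of the 2 experiments do not overlap.

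The sterol genes set MUC4-KD arrays 1 and 3 apart from arrays 2 and 4, with medians of -0.06, -0.73, -0.02 and -0.67 on arrays 1 to 4. The fatty acid medians did not, at -0.23, -0.64, -0.25 and -0.04, with array 4 the highest. In 16 of 29 members both arrays 1 and 3 were above both arrays 2 and 4, where this held for 15.9% of all genes. This grouping was chosen after values were seen. ACAT2 averaged 1.19 on arrays 1 and 3 and 0.15 on arrays 2 and 4, CYP51A1 0.01 and -1.05, INSIG1 0.29 and -0.93, and SCD -0.78 and -2.07. SREBF1 did not follow it, with averages of -1.52 and -1.50. Arrays 1 and 3 share a slide and have opposite dyes, arrays 2 and 4 lie on different slides with opposite dyes, and the part of slide, dye or clone in this was not tested. Over all probes array 1 correlated as closely with array 2 (r = 0.83) as with array 3 (r = 0.81). When arrays 1 with 3 and 2 with 4 were averaged first, leaving 2 values, 6 members were called (1 higher and 5 lower), where 15.1% of all genes were.

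The spread between arrays was wider for the members than for most genes. The median SD over 4 arrays was 0.52 for members and 0.33 for all genes in ErbB2-KD, and 0.48 and 0.29 in MUC4-KD. The members were also brighter, with a median log2 intensity of 11.7 against 10.4 and 10.3.

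The question whether the knockdowns differed was asked with limma over all 8 arrays. The difference, labelled MUC4-KD minus ErbB2-KD, was called for 4 of 29 members, all lower in MUC4-KD, where 11.4% of 12593 genes were called (6.59% higher and 4.81% lower). TM7SF2 differed by -1.50 (95% interval -2.19 to -0.82; limma, adjusted p = 0.0201). DHCR7 differed by -1.34 (-2.09 to -0.60; limma, adjusted p = 0.0371) and SREBF1 by -1.02 (-1.44 to -0.59; limma, adjusted p = 0.0149). LSS differed by -0.88 (-1.40 to -0.37; limma, adjusted p = 0.0421). For TM7SF2, DHCR7 and SREBF1 all 4 MUC4-KD arrays lay below all 4 ErbB2-KD arrays, as they did for 9.31% of all genes. This holds for the brightest probe of TM7SF2 but not for its other probe, by which MUC4-KD array 4 (-0.16) lay above ErbB2-KD array 1 (-0.19). Within each of the 3 slides the difference was below 0 for all 4 genes, at -1.38, -2.77 and -0.70 for TM7SF2, -1.22, -2.71 and -0.92 for DHCR7, -0.62, -1.67 and -0.89 for SREBF1, and -0.82, -1.39 and -0.81 for LSS. For TM7SF2, DHCR7 and SREBF1 that sign was fixed by the lack of overlap of their brightest probes. The 4 genes were picked by their difference, so the values within slides are no further support.

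Of these, TM7SF2, DHCR7 and LSS had means above 0 in ErbB2-KD (0.45, 0.23 and 0.29, not called), whereas SREBF1 was below 0 in both experiments. The directions rest on the MUC4-KD labels. With the signs of that experiment turned, the differences were 0.61, 0.88, 0.30 and 2.00 in the same order, and of these SREBF1 alone was called (limma, adjusted p = 0.00084). MVK just missed the threshold (difference -1.07, 95% interval -1.74 to -0.40; limma, adjusted p = 0.0528). For SQLE, ACACA and FASN, with differences of -0.08, -0.04 and 0.04, no difference was detected, and the intervals were -0.94 to 0.77, -0.38 to 0.30 and -0.52 to 0.61. The median difference was -0.49 over the sterol genes and -0.34 over the fatty acid genes, against -0.02 over all genes. The count of 4 fell to 2 when ErbB2-KD array 2, 3 or 4 or MUC4-KD array 1 or 2 was left out, and to 0 without MUC4-KD array 3. The share of all genes called fell as well, from 11.4% to 9.24%, 5.67%, 6.45%, 4.00% and 5.23% in that order, and to 3.14% without MUC4-KD array 3.

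**Figure D4:**
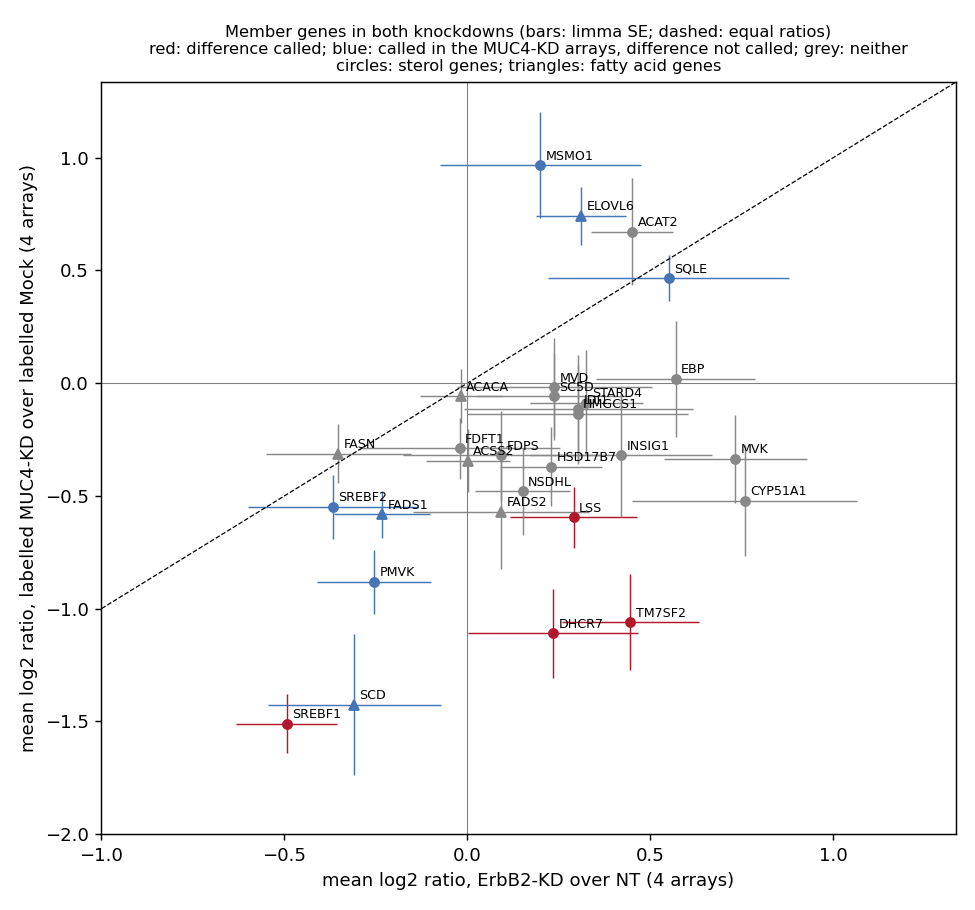
Mean log2 ratio of each gene in ErbB2-KD (horizontal axis) and labelled MUC4-KD (vertical axis), with limma standard errors over 4 arrays. The dashed line marks equal ratios. TM7SF2, DHCR7, LSS and SREBF1 (red), whose difference was called, lie below it, and MSMO1, ELOVL6 and ACAT2 lie above it.

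Probes of one gene did not always give the same value. Several probes were present for 14 members and 1 probe for 15. In the RNA labelled MUC4-KD the 2 probes of SREBF1, TM7SF2 and FADS1 were called in the same direction, with -1.06 and -0.77 for TM7SF2 and -0.58 and -0.66 for FADS1. On array 4, however, TM7SF2 was at -1.78 by its brightest probe and at -0.16 by the other, which was dimmer (mean log2 intensity 8.33 against 12.6). Of the 4 LSS probes, the pair that shares the brightest probe's accession was called (-0.59 and -0.56) and the pair designed on another transcript was not (-0.41 and -0.29). The uncalled pair was also much dimmer, with mean log2 intensities of 7.89 and 7.65 against 11.7 and 10.9. The parts of transcript and signal in this were not tested. SCD was called by its brightest probe alone: the others had means of -0.53 (limma, adjusted p = 0.132) and -0.31 (limma, adjusted p = 0.18). These other SCD probes were dimmer as well, with mean log2 intensities of 9.45 and 7.73 against 12.2. ACSS2 disagreed in sign, at -0.34 by its brightest probe and 0.76 by the other, neither called, and so did ACACA, at -0.06 and 0.17. CYP51A1 stood at -1.28 and 0.05 on array 4 by its 2 probes. In ErbB2-KD the other probe of ACSS2 gave a mean of 0.44, at 0.57, -0.13, 0.67 and 0.65, where the brightest gave 0.001. The other SCD probes had means of 0.07 and 0.04 there, against -0.31 by the brightest, and the other TM7SF2 probe 0.17, against 0.45. No probe of these genes was called in that experiment.

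**Figure D5:**
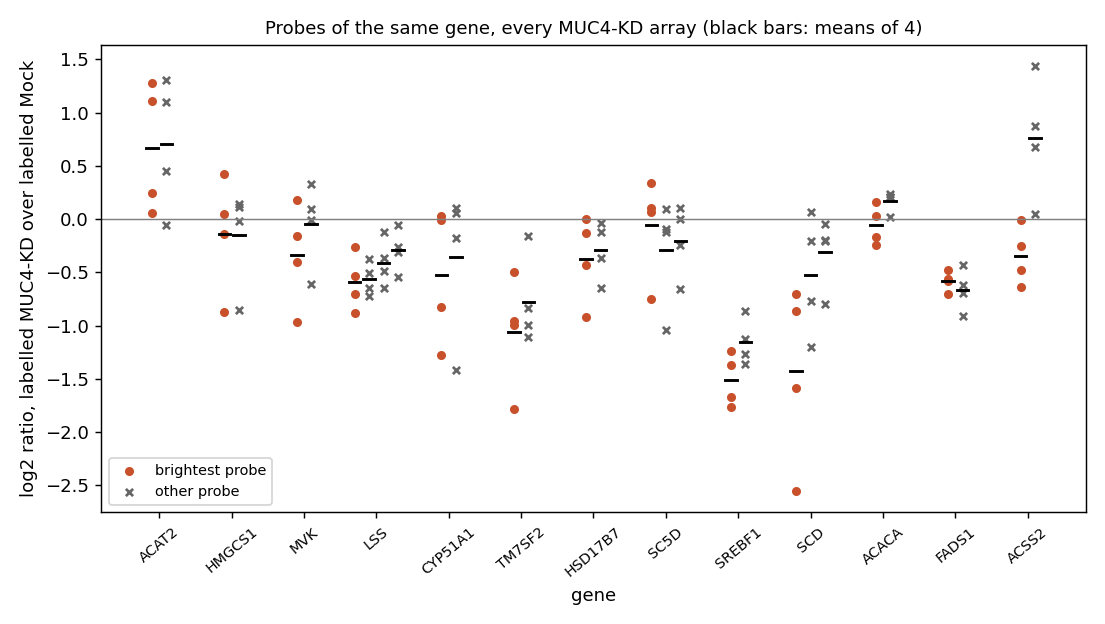
Log2 ratio (vertical axis) on each of the 4 labelled MUC4-KD arrays for every tested probe of the 13 genes with over 1 tested probe (horizontal axis). Red dots are the brightest probe, grey crosses the others, and black bars the means of 4. ACSS2 and ACACA have probes on opposite sides of 0, and the SCD probes run from -1.43 to -0.31 in mean.

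Genes around the pathway were read from 6 lists of pathway members. In the processing of SREBP, 1 of 4 genes was called in the RNA labelled MUC4-KD: INSIG2, the other retention protein, was higher at 1.79, 1.35, 1.67 and 1.03, or 2.75-fold (limma, adjusted p = 0.00588). In the isoprenoid branch, which takes farnesyl diphosphate to prenylated proteins, 2 of 8 were called, both lower: FNTB (-0.86), a subunit of farnesyltransferase, and GGPS1 (-0.49), which makes geranylgeranyl diphosphate. For sterol uptake, storage and export 4 of 10 tested were called, all lower. LIPA, the lysosomal lipase that frees cholesterol from its esters, was at -1.91, -1.94, -1.76 and -1.50, or 3.43-fold lower (limma, adjusted p = 0.00232). TMEM97 (-0.77), SCARB1 (-0.57), the HDL receptor, and NR1H2 (-0.46), which encodes the sterol sensor LXR-beta, were the others. The median of this list was -0.34.

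Among other genes of fatty acid synthesis and activation 4 of 19 were called in the RNA labelled MUC4-KD. FADS3 (-1.03) and SCD5 (-1.002), relatives of the desaturases above, were lower, and ACSL4 (0.70), which activates arachidonic acid, and HACD1 (0.44), a dehydratase of elongation, were higher. In glycerolipid assembly 3 of 8 were called: LPIN2 (0.81) was higher, and DGAT2 (-0.95), which makes triacylglycerol, and LPIN1 (-0.65) were lower. In fatty acid oxidation 6 of 15 were called, 5 higher and 1 lower, with a list median of 0.32. ACAA2 (0.65) and ETFDH (0.48) were among the higher genes, and ECI1 (-1.50), an enoyl-CoA isomerase, was lower. All these shares stand beside the 23.1% of all genes called.

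In ErbB2-KD 1 gene of these lists was called. HSD17B12, a reductase of very long chain fatty acid elongation, was higher at 5.45, 3.30, 4.70 and 3.41 (limma, adjusted p = 0.0158). Its signal stood well above background in all 4 clones but in the NT pool on 1 of 4 arrays. It thus passed the filter only through the RNA in which it was high, so its call is weak support. The size of its rise is uncertain too. The medians of the lists in ErbB2-KD lay between -0.16 for fatty acid oxidation and 0.17 for sterol uptake, storage and export.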

How the data were processed

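The authors hybridised the RNAs to 2-colour Agilent arrays and deposited each array's Feature Extraction 10.5.1.1 output, with the median spot and background intensity of both channels and the log10 ratio of the software. The authors' deposited value table holds the same log10 ratios, turned to knockdown over control, and was not used further. Per the labels, each RNA's dye was read from the channel of its sample. The design had assumed mean intensities, but the files hold medians, which were used.

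The limma package (3.58.1, R 4.3.3) was used for normexp background correction (offset 50) and loess within each array, and spots of one probe (43376 spots, 41000 probes) were averaged. RefSeq accessions named 25398 probes. A probe was tested if well above background on all 4 arrays in one of the RNAs, which kept 23869 probes in ErbB2-KD, 25047 in MUC4-KD and 25835 for the difference. Mean log2 ratios were tested against 0, and their difference over 8 arrays, with lmFit and eBayes and Benjamini-Hochberg adjustment over all probes tested. A gene stands by its brightest probe over 8 arrays and is called at an adjusted p under 0.05. All members are named, with values of other probes for the genes whose probes disagree most. Of the other lists up to 4 genes are named per list and knockdown, those with the smallest p among the called; 1 such gene is not reported here. The members and lists were chosen with earlier results of these data known.

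By channel, 56.7% to 74.2% of probes had a signal well above background, and the 4 arrays of each experiment limit the precision. The steps were tested on simulated data. Alternatives were an offset of 10, the Feature Extraction ratios, median centring, no filter or one on both channels, a dye term, slide or replicate number as a block, an intensity trend, 1 fit over 8 arrays, an unmoderated t-test, the mean of a gene's probes and leaving out each array.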

Additional observations from a re-analysis of the deposited data

Results flagged for a closer look

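In ErbB2-KD 6 member genes had 1 array far from the other 3, by a gap past Dixon's critical share of the whole range. Among the 58 groups of 4 arrays examined chance gives about 1 in 20, and none of the 6 lay in MUC4-KD. Clone EV7 was the distant one for MVK (0.018), FDFT1 (-1.09) and INSIG1 (-0.54), in each case below the other clones. By the other MVK probe, at -0.17, 0.15, 1.16 and 0.90, EV7 was not set apart. Clone EV9 was the distant one for LSS (-0.31) and STARD4 (-0.17), again below the others. None of the 3 other LSS probes set EV9 apart in this way: one gave 0.30, 0.28, -0.04 and 0.53, and by the pair designed on another transcript EV12 and EV9 were low together. Clone EV12 was the distant one for SREBF1 (-0.10), above the others, whereas by the other SREBF1 probe, at -0.59, -0.27, -0.25 and -0.17, EV7 lay farthest from the rest.

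The difference between the experiments, labelled MUC4-KD minus ErbB2-KD, passed the threshold for 4 of 29 members (limma over 8 arrays, adjusted p of 0.0149 to 0.0421), where 11.4% of all genes passed. It was -1.50 for TM7SF2, -1.34 for DHCR7, -1.02 for SREBF1 and -0.88 for LSS, each lower in the RNA labelled MUC4-KD, and its direction rests on labels that the MUC4 probes go against. With the signs of that experiment turned, the difference was called for SREBF1 but not for TM7SF2, DHCR7 or LSS.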

How the results depend on the processing

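The ErbB2-KD count of 0 member genes stayed at 0 in every alternative run. The share of all genes called ran from 0% to 6.01% over these runs. It was 0% with the intensity trend, with the unmoderated test and without array 1, so a count of 0 there says little about the members. The MUC4-KD count of 11 was 0 with median centring, 6 without the filter on dim probes, 6 with an intensity trend, 0 with the unmoderated t-test and 6 with arrays 1 with 3 and 2 with 4 averaged, and 0 to 13 when one array was left out. With the other alternatives it was 8 to 11, where 21.8% to 28.9% of all genes were called. Where the count fell, the share of all genes called fell with it, from 23.1% to 0%, 10.8%, 12.9%, 0.659% and 15.1% in the same order. It ran from 0.936% to 37.3% when one array was left out. The count for the difference, 4, was 0 with median centring and with the unmoderated test, 2 without the filter, and 0 to 4 when one array was left out; with the other alternatives, apart from the block below, it was 3 to 6. Here the share of all genes went from 11.4% to 0.413%, 2.78% and 5.82%, and to between 3.14% and 18.8% when one array was left out. The fatty acid median in ErbB2-KD, -0.02, ran from -0.21 to 0.022 when one array was left out. The other medians moved by less than the SD between array medians, though the sterol median in MUC4-KD went from -0.32 to -0.12 with median centring. No alternative moved the median of all genes by over 0.1. The cause of these changes was not tested.

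The replicate numbers did not pair the arrays: same-numbered arrays correlated at r = -0.24 to -0.09, and 0 arrays correlated best with their own number. With the replicate block the count for the difference was 2 (2.93% of all genes). Slide as a random block could not be estimated within 4 arrays. It was run over 8 arrays (MUC4-KD 10, ErbB2-KD 0, the difference 4), where 27.2%, 5.79% and 11.8% of all genes were called. Slide as a fixed block gave 6 for the difference, where 10.8% of all genes were called. The fixed block was chosen, like the 8-array random block for each experiment, after seeing the data.

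With the MUC4-KD signs turned, by construction, 6 differences were called (19.4% of all genes). Of the genes called with either sign, these changed sign: SREBF1 2.00, SCD 1.74, PMVK 1.14, DHCR7 0.88, FADS1 0.81, TM7SF2 0.61, LSS 0.30, ELOVL6 -1.05 and ACAT2 -1.12. Genes called with neither changed sign as well, such as MSMO1 (-1.17) and SREBF2 (0.92). No called gene changed sign under another alternative. Signals over background do not limit the members, since all 29 brightest probes were well above background on all arrays.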
